A study of Mus musculus with 6 samples.

Results

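The genes described here are the type I interferon response genes, 37 symbols chosen by name and grouped by what their products do, of which 36 were among the 31053 genes of the matrices (Mx2 is not analysed here). They were followed in 5 classes of mouse brain leukocytes: microglia, border-associated macrophages, monocytes, neutrophils and lymphocytes. The question was whether the level of the module differed by time after a stroke model or by genotype, and whether a class changed evenly or through a minority of cells with a strong response.

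Each of the 6 single-cell RNA libraries held the living CD45-positive cells of 3 pooled C57BL/6 brains. The mutant genotype was Cd300a-fl/fl Lyz2-cre (called Lyz2-cre), in which Cre recombinase is made from the Lyz2 locus, a gene of myeloid cells, and its control was Cd300a-fl/fl without Cre (called fl/fl), so mice of both genotypes carried the floxed Cd300a allele. Mice were naive, or were killed 1 h or 3 h after reperfusion that ended 60 min of occlusion of the middle cerebral artery by an intraluminal filament. Every combination of genotype and time was 1 library, so each fold change over time rests on 2 libraries per time and each genotype fold change on 3 libraries per genotype, in an additive model. No combination had a second pool of brains. The p-values therefore rest on how far libraries depart from the additive model, and on the spread of other genes. That departure mixes spread between pools with any genotype difference that changes with time.

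Type I interferons bind the receptor pair Ifnar1 and Ifnar2 and act through a complex that holds Stat2 and Irf9 and binds interferon-stimulated response elements in promoters. The induced genes encode antiviral effectors that bind foreign RNA, degrade RNA, modify proteins or block membrane fusion, together with the sensors and regulators that sustain or end the response. In the brain, microglia are a known source of and responder to type I interferon, and small groups of microglia with high levels of these genes have been described in development, ageing and disease.

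Promoter sequences are shown first because members described below differ in whether a fixed window around the start site holds a match to the response element. An element outside the window would be missed. The core of the element, a pair of GAAA blocks with any 2 bases between them, was searched on both strands of the 300-base windows that RefSeq gives for build GRCm38.p6, from 250 bases before to 50 bases after each start. It was present for 14 of the 29 members in that table and for 3.99% of its 27025 genes. A longer form, the same pair followed directly by CT, whose matches are a subset of the first, was present for 7 of 29 members and for 0.303% of genes. The windows of 4 members follow, each 5′ to 3′ on the strand of its gene, with the matches to the GAAA pair on either strand in capitals. Isg15 (chr4:156200769-156201068, minus strand) has 3 overlapping matches, the nearest starting 66 bases before the start site. Ifit1 (chr19:34640639-34640938, plus strand) has 2 matches, the nearest starting 85 bases before it, and Ifitm2 (chr7:140955912-140956211, minus strand) has 1 match that starts 46 bases before it. Slfn2 (chr11:83064862-83065161, plus strand) has no match in this window.
Isg15: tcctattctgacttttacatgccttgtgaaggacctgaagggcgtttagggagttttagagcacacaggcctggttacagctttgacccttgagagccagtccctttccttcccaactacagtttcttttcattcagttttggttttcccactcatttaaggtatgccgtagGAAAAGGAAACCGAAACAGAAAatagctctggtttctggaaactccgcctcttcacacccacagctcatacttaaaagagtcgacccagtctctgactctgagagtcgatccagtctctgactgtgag
Ifit1: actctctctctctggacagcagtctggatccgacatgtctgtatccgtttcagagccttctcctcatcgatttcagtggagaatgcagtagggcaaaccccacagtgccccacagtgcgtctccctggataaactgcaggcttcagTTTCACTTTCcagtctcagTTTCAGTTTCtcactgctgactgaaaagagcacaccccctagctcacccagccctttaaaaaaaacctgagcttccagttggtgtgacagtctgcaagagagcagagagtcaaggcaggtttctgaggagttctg
Ifitm2: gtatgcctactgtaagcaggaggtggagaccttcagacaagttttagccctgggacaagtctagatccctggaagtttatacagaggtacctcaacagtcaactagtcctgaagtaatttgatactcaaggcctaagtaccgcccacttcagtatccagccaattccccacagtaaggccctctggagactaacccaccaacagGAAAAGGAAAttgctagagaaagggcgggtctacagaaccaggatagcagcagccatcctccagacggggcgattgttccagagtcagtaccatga
Slfn2: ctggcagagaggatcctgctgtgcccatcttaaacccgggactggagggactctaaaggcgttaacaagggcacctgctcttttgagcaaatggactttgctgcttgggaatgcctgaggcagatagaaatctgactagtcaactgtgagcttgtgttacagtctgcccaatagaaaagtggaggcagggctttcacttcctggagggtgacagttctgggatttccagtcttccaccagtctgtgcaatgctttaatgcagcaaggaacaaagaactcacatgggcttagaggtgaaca
These letters describe the windows and do not show that a factor bound them.

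The libraries held 6721 to 9622 cells after filtering and 35479437 to 48478866 unique molecular identifiers (UMIs) each. Clusters were named "-like" from marker lists, and the clustering left out the members and a fixed list of other interferon pathway genes. Interferon-induced genes outside these lists, such as Ifitm1, were not left out. Microglia-like cells made up most of each library, with 4751 to 7334 cells, against 153 to 1056 neutrophil-like, 119 to 809 monocyte-like, 326 to 670 lymphocyte-like and 45 to 117 border-associated macrophage-like cells. No pair of libraries shared more than 30 cell barcodes. Cd300a, the targeted gene, was at 14.7, 11.1 and 9.84 counts per 1000000 UMIs (CPM) in Lyz2-cre neutrophil-like cells of naive mice and at 1 h and 3 h, against 174, 253 and 128 CPM in fl/fl cells. In microglia-like cells it was at 137, 171 and 163 CPM in Lyz2-cre libraries, against 172, 211 and 206 CPM in fl/fl libraries. The fl/fl naive library stood apart from the other 5 in the module: it had the highest microglial level of 21 of the 36 members, the fl/fl 3 h library that of 10, the Lyz2-cre 1 h library that of 3 and the Lyz2-cre 3 h library that of 2. Of the 12810 genes that passed the filter on low counts, the fl/fl naive library had the highest level of 13.2% and the fl/fl 3 h library of 20.8%.

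In microglia-like cells, a few members rose by 3 h while most of the module did not. Of the 35 members that passed the filter on low counts, 7 were higher and 4 lower at 3 h than in naive mice (edgeR quasi-likelihood test, Benjamini-Hochberg adjusted p under 0.05), a share of 31.4% against 47.9% of all genes tested. The members' median log2 fold change was -0.02, and that of all genes tested was -0.02. At 1 h, 4 were higher and 1 lower than in naive mice, against 27% of all genes, and between 3 h and 1 h 5 were higher and 3 lower, against 47.8% of all genes. Leaving out the fl/fl naive library gave 4 calls at 3 h against naive, and the 1 h count ran from 2 without either naive library to 11 without either 3 h library. The count at 3 h against 1 h was 17, 13 and 15 without the fl/fl 1 h, Lyz2-cre 3 h or fl/fl 3 h library. In the heat map of fold changes the microglial column at 3 h shows single strong rows and no common direction.

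The microglia-like class lay in other clusters at each time. Clusters 0 and 1, both with Gpr34, P2ry12 and Tmem119 among their leading genes, held 95.6%, 5.34% and 0.423% of its cells in naive, 1 h and 3 h Lyz2-cre libraries and 96.0%, 2.88% and 0.526% in fl/fl libraries. Clusters 19, 20 and 21, led by Gdf15, by Ccl12 and by the heat shock gene Hspb1, together held 0.0873%, 0.840% and 39.0% in Lyz2-cre libraries and 0.162%, 8.93% and 56.1% in fl/fl libraries. Cluster 18, with a median of 1588 UMIs per cell, had 352 of its 604 cells in the Lyz2-cre 3 h library and 243 in the fl/fl 3 h library. The fold changes over time compare these different clusters, and the part of this make-up in them was not tested.

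**Figure D1:**
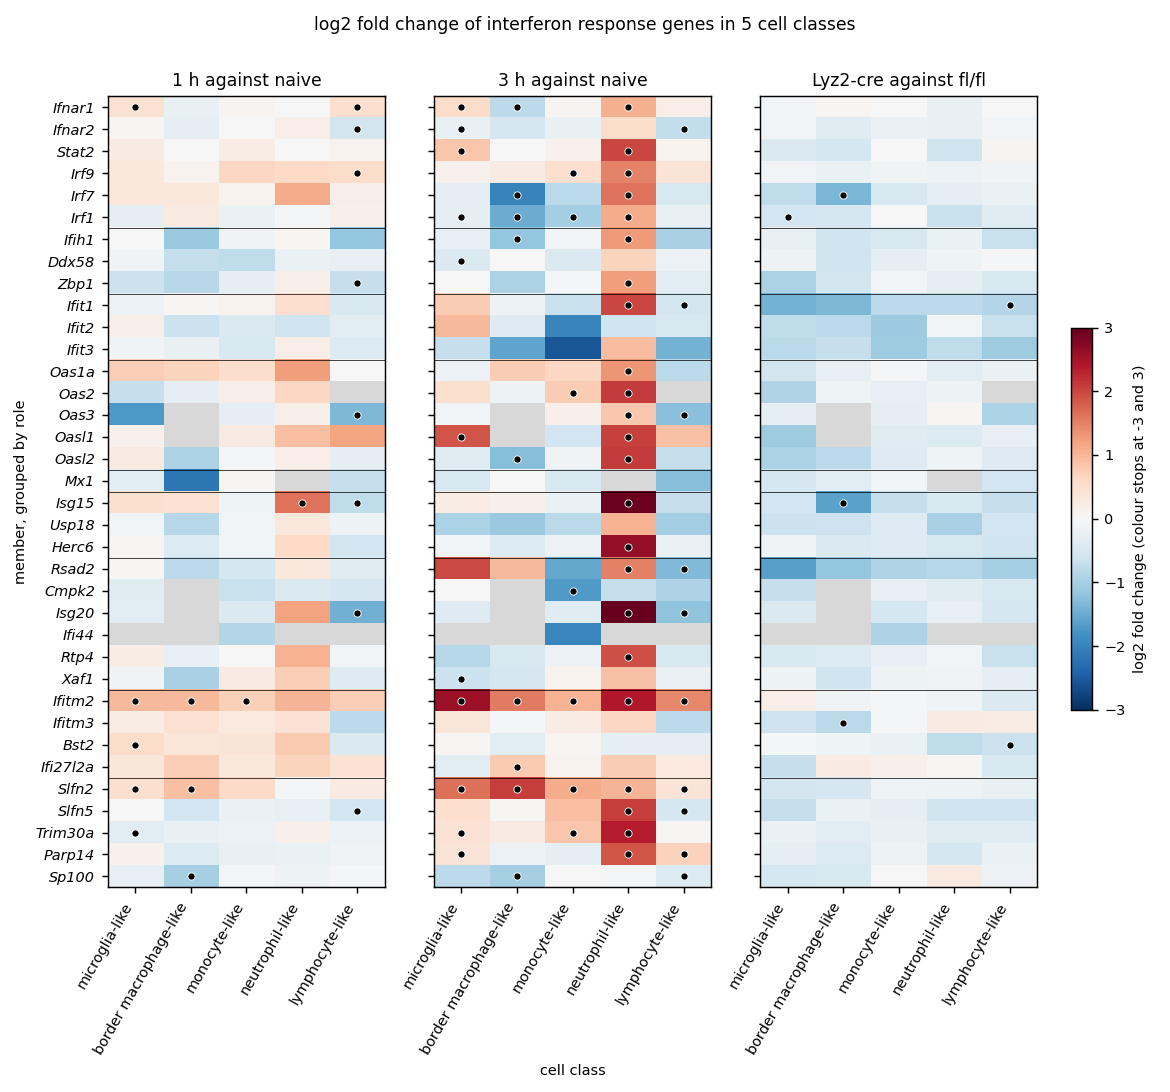
Heat map of the log2 fold change of each member (rows, grouped by role) in the 5 classes (columns) for 1 h against naive, 3 h against naive and Lyz2-cre against fl/fl; black dots mark an adjusted p under 0.05 and grey cells are members that did not pass the filter on low counts. In the neutrophil-like column 23 of 34 members were called higher at 3 h, and 1370 of all 7734 genes tested. In the microglia-like column 7 of 35 members were called higher at 3 h, and 3139 of all 12810 genes tested.

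The strongest microglial rise was that of Ifitm2, a membrane protein that blocks fusion of viral with endosomal membranes. Ifitm2 was at 2.52, 5.72 and 15.2 CPM in Lyz2-cre microglia-like cells of naive mice and at 1 h and 3 h, and at 2.58, 3.71 and 13.7 CPM in fl/fl cells. Both 3 h libraries were above all 4 others. Its log2 fold change was 2.58 ± 0.19 at 3 h against naive (SE, edgeR adjusted p = 1.08e-05), 1.60 ± 0.18 at 3 h against 1 h (adjusted p = 0.000134) and 0.98 ± 0.20 at 1 h against naive (adjusted p = 0.00735). The 1 h call was lost without the Lyz2-cre naive library (0.78, adjusted p = 0.116) or the Lyz2-cre 1 h library (0.65, adjusted p = 0.128).

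Ifitm2 is also abundant in neutrophils, so neutrophil RNA in the microglia-like class was measured beside it. Ifitm2 was at 944, 1254 and 3856 CPM in Lyz2-cre neutrophil-like cells and at 856, 2244 and 3937 CPM in fl/fl ones. Its microglial level was 0.267%, 0.456% and 0.394% of the neutrophil level in Lyz2-cre libraries and 0.301%, 0.166% and 0.347% in fl/fl libraries. S100a9, which neutrophils make in bulk, stood in microglia-like cells at 0.0249%, 0.0729% and 0.0604% of its neutrophil level in Lyz2-cre libraries and at 0.00978%, 0.0137% and 0.0787% in fl/fl ones. The S100a9 share was thus higher at 3 h than in naive mice in both genotypes, and so was its level, with 44.1, 129.7 and 52.3 CPM in Lyz2-cre microglia-like cells and 14.1, 16.4 and 78.5 CPM in fl/fl ones. The summed level of the 11 neutrophil markers in microglia-like cells was 308, 483 and 270 CPM in Lyz2-cre libraries and 243, 240 and 301 CPM in fl/fl libraries. Of this, Csf3r alone was at 210.5, 194.2 and 164.8 CPM in Lyz2-cre libraries and at 211.7, 205.9 and 153.4 CPM in fl/fl libraries. The microglial level of Csf3r was 10.99% to 42.3% of its neutrophil level, against at most 0.144% for each other marker. The sums are thus weighted towards Csf3r and do not show how the other markers moved. The part of neutrophil RNA in the microglial Ifitm2 values was not tested.

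Slfn2, a Schlafen protein that keeps resting T cells and monocytes quiescent, rose with Ifitm2. It was at 34.1, 54.3 and 109 CPM in Lyz2-cre microglia-like cells and at 57.8, 62.9 and 160.1 CPM in fl/fl cells, so the 3 h libraries were highest in both genotypes. The log2 fold change was 1.65 ± 0.14 at 3 h against naive (edgeR adjusted p = 0.000194), 1.15 ± 0.14 at 3 h against 1 h (adjusted p = 0.000811) and 0.50 ± 0.14 at 1 h against naive (adjusted p = 0.0408). The 1 h call was lost without the Lyz2-cre 1 h library (0.24, adjusted p = 0.275), the Lyz2-cre naive library (0.32, adjusted p = 0.252) or the fl/fl naive library (0.70, adjusted p = 0.0536).

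Among the signalling members, Stat2, a subunit of the factor that interferon activates, was at 13.1, 15.9 and 20.9 CPM in Lyz2-cre cells and at 17.7, 17.7 and 31.0 CPM in fl/fl cells. It was higher at 3 h than in naive mice by 0.82 ± 0.13 on the log2 scale (edgeR adjusted p = 0.000751). Ifnar1, a receptor chain, was higher by 0.45 ± 0.08 at 1 h and by 0.54 ± 0.09 at 3 h than in naive mice (adjusted p = 0.00511 and 0.000771), and the 1 h call was lost without the fl/fl naive library (0.36, adjusted p = 0.0718) or the fl/fl 1 h library (0.37, adjusted p = 0.102). Ifnar2, the other receptor chain, was lower at 3 h by a log2 fold change of -0.21 ± 0.08 (adjusted p = 0.0451), a call that was lost with any 1 of the 6 libraries left out and with DESeq2 (-0.20, adjusted p = 0.119). Irf1, a transcription factor that interferons and inflammatory cytokines induce, was lower at 3 h by -0.28 ± 0.10 (adjusted p = 0.0456), and the call was lost without the fl/fl naive, Lyz2-cre 1 h, fl/fl 1 h or fl/fl 3 h library (-0.17, -0.29, -0.29 and -0.12, adjusted p between 0.0799 and 0.443) and with DESeq2 (-0.27, adjusted p = 0.126). No call was made over time for Irf7 or Irf9.

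Trim30a, a tripartite motif protein that restrains inflammatory signalling, was at 93.4, 76.3 and 119.3 CPM in Lyz2-cre microglia-like cells and at 110, 74.3 and 142 CPM in fl/fl cells, lowest at 1 h in both genotypes. It was lower at 1 h than in naive mice by a log2 fold change of -0.32 ± 0.10 (edgeR adjusted p = 0.0431) and higher at 3 h than at 1 h by 0.76 ± 0.10 (adjusted p = 0.000337). The 3 h level was above the naive level by 0.44 ± 0.10 (adjusted p = 0.0054), a call lost without the Lyz2-cre naive library (0.34, adjusted p = 0.102) or the fl/fl naive library (0.47, adjusted p = 0.0588). The lower level at 1 h was lost without the Lyz2-cre naive, fl/fl naive or fl/fl 1 h library (-0.38, -0.24 and -0.14, adjusted p = 0.143, 0.301 and 0.488) and with DESeq2 (-0.29, adjusted p = 0.107). Bst2, the membrane protein tetherin, which holds budding virions on the cell, had the opposite course, with 123, 176 and 119.9 CPM in Lyz2-cre cells and 127, 166 and 123 CPM in fl/fl cells. Bst2 was higher at 1 h than in naive mice by 0.56 ± 0.08 (adjusted p = 0.00156) and lower at 3 h than at 1 h by -0.52 ± 0.08 (adjusted p = 0.000811). The 1 h call against naive missed the threshold without the Lyz2-cre 1 h library (0.46, adjusted p = 0.0522).

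The remaining microglial calls at 3 h against naive concerned 4 genes. Xaf1, a pro-apoptotic interferon-induced protein, and Ddx58, which encodes the RNA sensor RIG-I, were lower by log2 fold changes of -0.65 ± 0.16 and -0.44 ± 0.13 (edgeR adjusted p = 0.0119 and 0.0221), and both calls were lost without the fl/fl naive library (-0.45 and -0.31, adjusted p = 0.101 and 0.203), that of Ddx58 also with DESeq2 (adjusted p = 0.0576). Parp14, an ADP-ribosyltransferase, was higher by 0.38 ± 0.12 (adjusted p = 0.029), and the call was lost without the Lyz2-cre naive, fl/fl naive or fl/fl 3 h library (0.32, 0.37 and 0.19). Oasl1, a member of the oligoadenylate synthetase family, was higher by 1.89 ± 0.52 (adjusted p = 0.0251), with 0.49, 0.87 and 1.29 CPM in Lyz2-cre cells and 1.08, 0.62 and 4.57 CPM in fl/fl cells. The value for Oasl1 without the fl/fl 3 h library was 0.95 (adjusted p = 0.108), and the call was also lost without the Lyz2-cre naive library (1.78, adjusted p = 0.145) or the fl/fl naive library (1.97, adjusted p = 0.192).

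**Figure D2:**
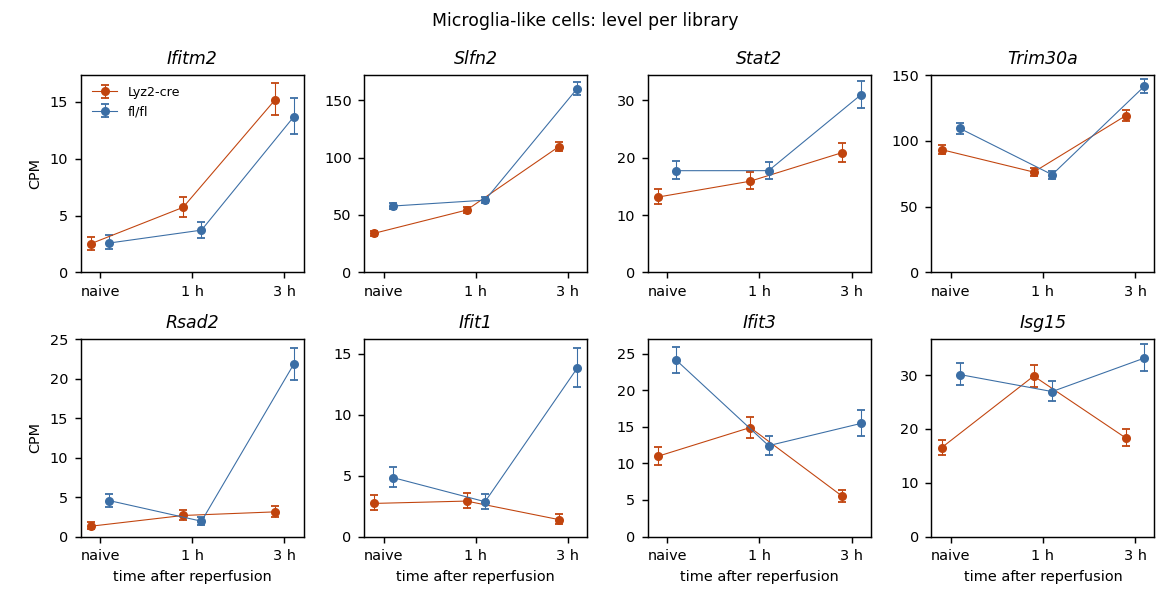
Level in CPM (y axis, separate scales) of 8 members in microglia-like cells of the 6 libraries at naive, 1 h and 3 h, Lyz2-cre left of fl/fl at each time; bars are exact Poisson 95% intervals, which cover counting error only. Ifitm2, Slfn2, Stat2 and Trim30a were highest at 3 h in both genotypes, while Rsad2 and Ifit1 were highest in the fl/fl 3 h library, at 21.8 and 13.8 CPM.

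The classical antiviral effectors did not behave as a group over time in microglia. Rsad2, which encodes viperin, was at 1.31, 2.67 and 3.13 CPM in Lyz2-cre microglia-like cells and at 4.55, 1.94 and 21.8 CPM in fl/fl cells. Its fold change at 3 h against naive, 1.99 ± 1.03 on the log2 scale, did not pass the test (edgeR adjusted p = 0.241), and the fl/fl 3 h library was far above its Lyz2-cre partner. Ifit1, which binds foreign RNA at its cap, was at 2.72, 2.91 and 1.39 CPM in Lyz2-cre cells and at 4.84, 2.86 and 13.8 CPM in fl/fl cells, and its fold change was 0.77 ± 1.06 (adjusted p = 0.616). Ifit2 was likewise highest in the fl/fl 3 h library, at 17.4 CPM, against 4.62 to 6.77 CPM in the other 5, with 0.97 ± 0.57 at 3 h against naive (adjusted p = 0.255). Ifit3, whose reads may be split with its near-identical neighbour Ifit3b, was instead highest in the fl/fl naive library, with 10.98, 14.9 and 5.51 CPM in Lyz2-cre cells and 24.1, 12.4 and 15.5 CPM in fl/fl cells. Isg15, a ubiquitin-like modifier, was at 16.5, 29.8 and 18.3 CPM in Lyz2-cre cells and at 30.1, 27.0 and 33.2 CPM in fl/fl cells. The fl/fl 3 h library was thus high for Rsad2, Ifit1 and Ifit2, and the Lyz2-cre 3 h library was not.

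Between genotypes, microglial members were mostly lower in Lyz2-cre libraries, but few passed the test. The fold change was below 0 for 34 of the 35 tested members, with a median of -0.55 on the log2 scale against 0.00 over all genes tested. Irf1 passed, with 48.5, 38.9 and 44.2 CPM in Lyz2-cre microglia-like cells against 78.7, 58.9 and 52.0 CPM in fl/fl cells, so the Lyz2-cre level was lower at each time. Its fold change was -0.57 ± 0.08 (edgeR adjusted p = 0.0218), and 0.484% of all genes were called in this comparison. The call was lost without either naive library (-0.47 and -0.48, adjusted p = 0.0933 and 0.0962) or either 1 h library (-0.55 in each, adjusted p = 0.155 and 0.154). At an unadjusted p under 0.05, 11 of the 35 members were below the threshold, and DESeq2 called 3.

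The genotype difference was not the same at each time. Of the 36 members, 35 were lower in the Lyz2-cre than in the fl/fl library of naive mice, 13 at 1 h and 34 at 3 h, against 35%, 48.7% and 34.8% of all genes with at least 3 UMIs in either library. The Poisson 95% intervals of both libraries were apart, with Lyz2-cre lower, for 28 members in naive mice, 3 at 1 h and 24 at 3 h, against 4.58%, 10.1% and 9.48% of those genes. They were apart with Lyz2-cre higher for 0, 8 and 0 members, against 11.3%, 8.43% and 20.7% of genes. With 1 library per genotype at each time, these counts compare single pools of brains. Without either 1 h library 12 members were called, each lower in Lyz2-cre, 7 without either 3 h library, and without either naive library 0 were called. The share of all genes called in these fits is not given, so these counts show only how far the calls depend on single libraries.

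Few microglia-like cells carried several core antiviral members at a time. A cell was called interferon-positive if at least 3 of 19 core members (Ifit1, Ifit2, Ifit3, Isg15, Rsad2, Usp18, Oasl1, Oasl2, Oas1a, Oas2, Oas3, Mx1, Irf7, Ifi44, Rtp4, Zbp1, Xaf1, Cmpk2 and Herc6) had a UMI after the cell was thinned to 2000 UMIs. In Lyz2-cre microglia-like cells, 1.14% (95% interval 0.880 to 1.46) were positive in naive mice, 1.502% (1.23 to 1.82) at 1 h and 0.491% (0.338 to 0.689) at 3 h. In fl/fl microglia-like cells the shares were 2.51% (2.11 to 2.97), 1.52% (1.24 to 1.84) and 1.54% (1.20 to 1.95). The intervals are exact binomial (Clopper-Pearson) and cover counting error only. The share was lowest in the Lyz2-cre 3 h library and highest in the fl/fl naive library, and it was lower at 3 h than in naive mice in both genotypes, by a mean difference of -0.810 ± 0.225 percentage points (SD, n = 2 genotypes). Averaged over the times, Lyz2-cre minus fl/fl was -0.815 ± 0.707 percentage points (SD, n = 3 times) and -0.0203 at 1 h. Without thinning, the shares were 3.35%, 3.96% and 1.20% in Lyz2-cre libraries and 6.66%, 3.41% and 3.43% in fl/fl libraries. The thinning left out 119 to 613 shallower microglia-like cells per library, with the most in the Lyz2-cre 3 h library.

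**Figure D3:**
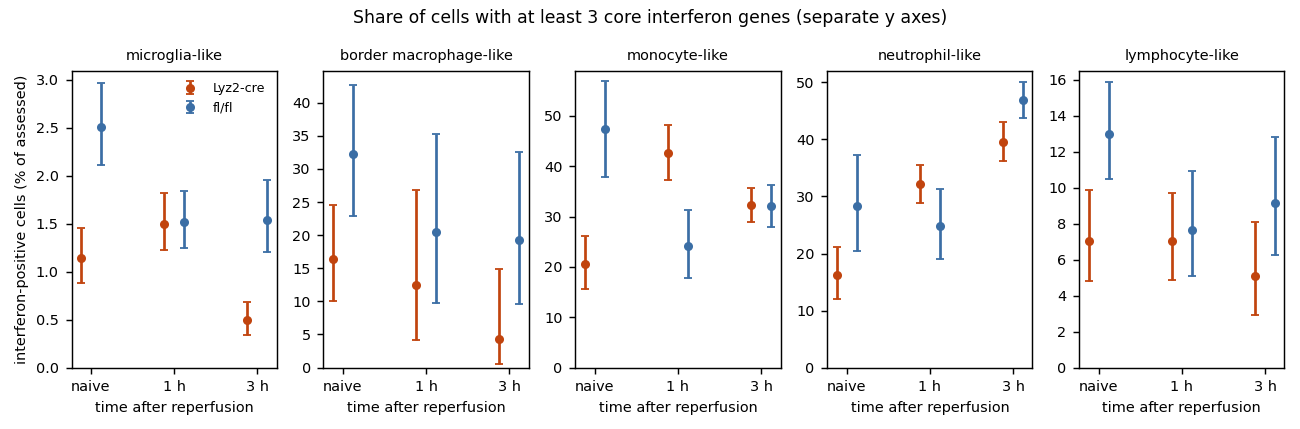
Share of interferon-positive cells (percent of assessed cells, y axis, separate scales) in each class by time, Lyz2-cre left of fl/fl; bars are exact binomial 95% intervals. Shares stayed between 0.491% and 2.51% in microglia-like cells and reached 46.9% in neutrophil-like cells of the fl/fl 3 h library.

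The positive cells held between 19.5% and 44.2% of the core UMIs of a library. In Lyz2-cre libraries the positive microglia-like cells held 31.7%, 27.7% and 19.5% of the thinned core UMIs of naive, 1 h and 3 h cells, and in fl/fl libraries 39.6%, 34.7% and 44.2%. The negative cells averaged 0.183, 0.251 and 0.167 core UMIs per cell in Lyz2-cre libraries and 0.260, 0.199 and 0.228 in fl/fl libraries. The positive cells averaged 7.38, 6.32 and 8.21 core UMIs in Lyz2-cre libraries and 6.61, 6.84 and 11.5 in fl/fl libraries. The fl/fl 3 h library thus had a share of positive cells close to those of the 1 h libraries (1.54%, against 1.502% in Lyz2-cre and 1.52% in fl/fl) and the highest mean per positive cell, and its 26 cells with at least 10 core UMIs held 38.1% of its core UMIs. For the high levels above, the fl/fl 3 h library had 453 Rsad2 UMIs in 65 microglia-like cells, of which 10 cells held 353, and 287 Ifit1 UMIs in 53 cells, of which 10 held 228.

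Members differed widely in how much of their RNA lay in the positive cells. As the core genes chose the cells, their own shares are a description: the positive cells held 48.8% to 89.5% of the microglial Ifit1 UMIs over the 6 libraries, 50% to 79.8% of Ifit3 and 30.4% to 75.0% of Rsad2. Of the members that did not choose the cells, Slfn5 reached 18.9% to 46.8%, Ifitm3 11.7% to 34.5% and Isg20 10.4% to 25.8%. Of the 2 members with the strongest rise at 3 h, Slfn2 lay in the middle of these members, with 2.48% to 15.8% of its UMIs in positive cells, and Ifitm2 near the low end, with 0.447% to 6.94%. Ifnar1 and Ifnar2, at 0.342% to 2.22% and 0.554% to 2.86%, lay close to the share of the cells themselves. With the positive cells left out, 10 of the 11 members called at 3 h against naive were again called, Slfn2 and Ifitm2 among them. Irf1 narrowly missed the threshold (-0.27, edgeR adjusted p = 0.0585), with a value close to that with all cells. The positive cells held 0.692% to 5.74% of its UMIs. Ifih1, Slfn5 and Ifit2, a core gene that chose the cells, were added.

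**Figure D4:**
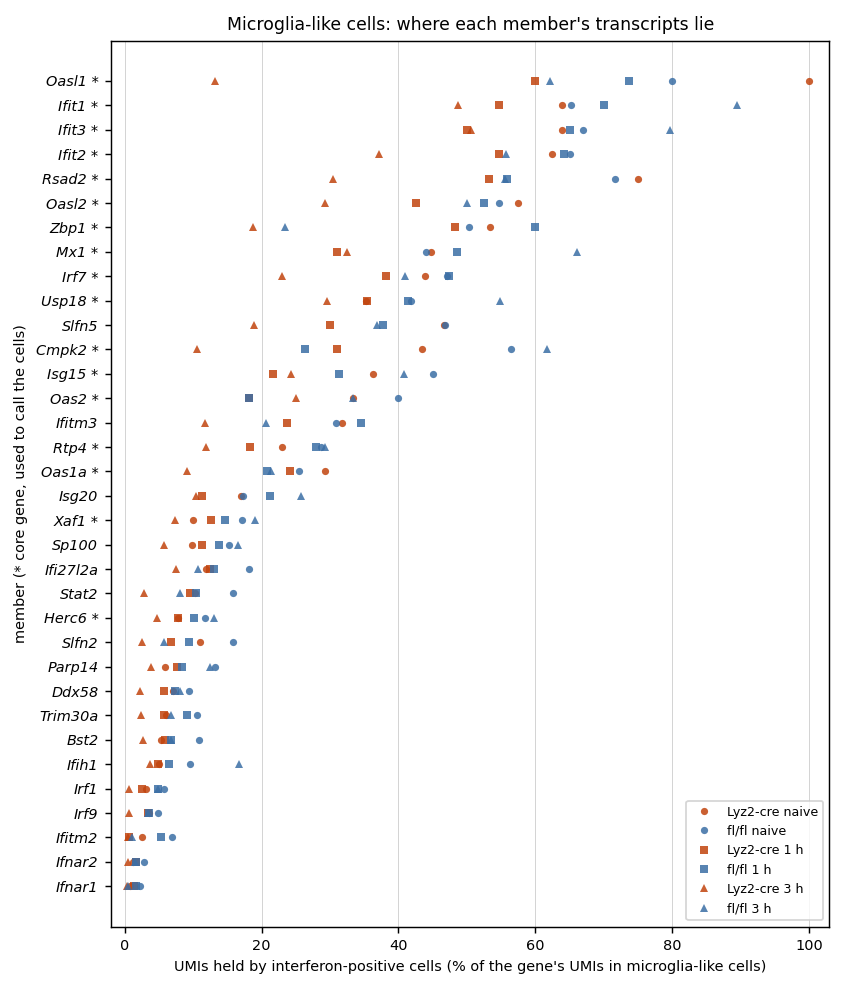
Percent of each member's microglial UMIs that lay in interferon-positive cells (x axis), for members with at least 100 UMIs (rows), 1 point per library; asterisks mark the core genes that chose the cells. Ifit1 and Ifit3 lie at the high end, and Ifitm2, Ifnar1 and Ifnar2 at the low end.

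To measure the response in genes that did not choose the cells, microglia-like cells were also split by 10 of the core genes alone (at least 2 of Ifit1, Ifit3, Isg15, Usp18, Oasl2, Oas1a, Mx1, Zbp1, Xaf1 and Herc6), and the other members were compared between the resulting cells within each library. Of the 9 core genes left out of the split, 7 were higher in the positive cells of all 6 libraries, Oas3 in 5 and Ifi44 in 2, and of the 17 members outside the core 15 were, against 2.97% of the 12800 genes that passed the filter and were not used in the split. The median ratio was 69.0 for Oasl1, 53.8 for Ifit2, 48.7 for Rsad2, 29.5 for Irf7, which amplifies interferon production, and 24.3 for Cmpk2, a mitochondrial nucleotide kinase beside Rsad2. Among members outside the core it was 25.2 for Slfn5, 14.9 for Ifitm3, 11.05 for Isg20, an exonuclease of single-stranded RNA, 6.62 for Ifi27l2a, 4.71 for Stat2, 4.18 for Slfn2 and 3.49 for Bst2. Ifnar1 had a ratio of 0.96 and Ifitm2 of 1.19, higher in 2 and 3 of the 6 libraries. Of the 88 other interferon pathway genes in the matrices, 78 passed the filter, and 51 of these were higher in positive cells of all 6 libraries, among them Ifit3b at a ratio of 115, Ifi211 at 87.5, Ifi207 at 24.1, Ifi204 at 19.2 and the guanylate-binding protein Gbp2 at 10.3. The split of reads between Ifit3 and Ifit3b is uncertain.

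The ligands were almost absent. Ifnb1, the type I interferon that microglia can make, had 2, 1 and 20 UMIs in Lyz2-cre microglia-like cells and 3, 4 and 39 UMIs in fl/fl cells. At 3 h these lay in 7 Lyz2-cre and 8 fl/fl cells, with up to 12 and 28 UMIs in a cell. Of the Ifnb1 cells deep enough to assess at 3 h, 0 of 6 were interferon-positive in the Lyz2-cre library and 3 of 8 in the fl/fl library. No UMI of Ifna1, Ifna2, Ifna4 or Ifna5 was found in microglia-like cells.

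Of these 78 pathway genes, 23 were higher and 23 lower at 3 h than in naive mice, a share of 59.0% against 47.9% of all genes. At 1 h, 9 were higher and 8 lower, a share of 21.8% against 27% of all genes. At 3 h the smallest adjusted p was that of Cd274, the ligand PD-L1, at 1.97 ± 0.12 on the log2 scale (edgeR adjusted p = 2.45e-06), and of Stat3, the factor downstream of interleukin 6 and related cytokines, at 1.56 ± 0.10 (adjusted p = 3.89e-06). Tlr7, the endosomal sensor of single-stranded RNA, Trim25, the ubiquitin ligase that activates RIG-I, the phosphatase Ptpn1 and the guanylate-binding protein Gbp5 were also higher, by 1.30 ± 0.09, 1.26 ± 0.09, 1.15 ± 0.09 and 1.06 ± 0.11. At 1 h, Tlr7 and Trim25 were already higher by 1.01 ± 0.09 and 0.98 ± 0.09 (adjusted p = 6.82e-05 and 8.65e-05), Mavs, the adaptor of RIG-I, by 0.56 ± 0.09 (adjusted p = 0.00299), and Nlrc5, the activator of class I antigen presentation genes, was lower by a log2 fold change of -1.40 ± 0.23 (adjusted p = 0.00264). Between genotypes 0 were higher and 5 lower in Lyz2-cre, a share of 6.41% against 0.484% of all genes: Nlrc5 (-1.35 ± 0.17, adjusted p = 0.0107), Irgm1, Ifi207, Socs3 and Cd274. The level of Ifi207 was 1.28, 1.73 and 8.39 CPM in Lyz2-cre libraries against 5.02, 4.57 and 46.4 CPM in fl/fl libraries.

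Neutrophil-like cells were the class in which most of the module rose by 3 h. At 3 h, 23 of the 34 members that passed the filter were higher than in naive mice and 0 lower (edgeR adjusted p under 0.05), a share of 67.6% against 28.9% of all genes called in either direction and 17.7% called higher. The median log2 fold change was 1.30, against -0.07 over all genes tested, and 30 of 34 members were above 0. Between 3 h and 1 h, 20 were higher and 1 lower, against 25.7% of all genes called in either direction. At 1 h, 1 member was called, against 0.789% of all genes, and 0 to 6 with each library left out in turn (0 without either naive library, 2 without the Lyz2-cre 1 h library and 6 without the fl/fl 1 h or either 3 h library).

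The leading members were an exonuclease, a modifier and its ligase. Isg20 was at 30.6, 49.4 and 308 CPM in Lyz2-cre neutrophil-like cells and at 35.4, 101 and 279 CPM in fl/fl cells, with both 3 h libraries above the rest, and its log2 fold change at 3 h against naive was 3.43 ± 0.28 (edgeR adjusted p = 4.36e-05). Isg15 was at 94.1, 289.97 and 811 CPM in Lyz2-cre cells and at 188, 495 and 863 CPM in fl/fl cells, increasing with each time in both genotypes. It was the member called at 1 h, by 1.64 ± 0.25 (adjusted p = 0.0139), and at 3 h it was higher by 2.95 ± 0.26 (adjusted p = 5.92e-05). The 1 h call was lost without the Lyz2-cre naive library (1.44, adjusted p = 0.45) or the fl/fl naive library (1.88, adjusted p = 0.12). Herc6, the ligase that attaches Isg15 in the mouse, was at 9.17, 13.1 and 61.6 CPM in Lyz2-cre cells and at 18.5, 24.2 and 70.1 CPM in fl/fl cells, higher at 3 h by 2.64 ± 0.30 (adjusted p = 0.000191).

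Other roles moved with them. Trim30a was higher at 3 h than in naive mice by 2.35 ± 0.23, Oasl2 of the oligoadenylate synthetase family by 2.11 ± 0.25 and Ifitm2 by 2.39 ± 0.29 (edgeR adjusted p = 9.25e-05, 0.000259 and 0.000304). Oasl2 was at 93.5, 112 and 355 CPM in Lyz2-cre cells and at 131, 116 and 419.6 CPM in fl/fl cells. Rsad2 was at 74.6, 91.8 and 226 CPM in Lyz2-cre cells and at 188, 197 and 342 CPM in fl/fl cells, so the Lyz2-cre 3 h level was above each naive level, and the fl/fl level was higher at each time. Ifi44 had no UMI in any neutrophil-like library.

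**Figure D5:**
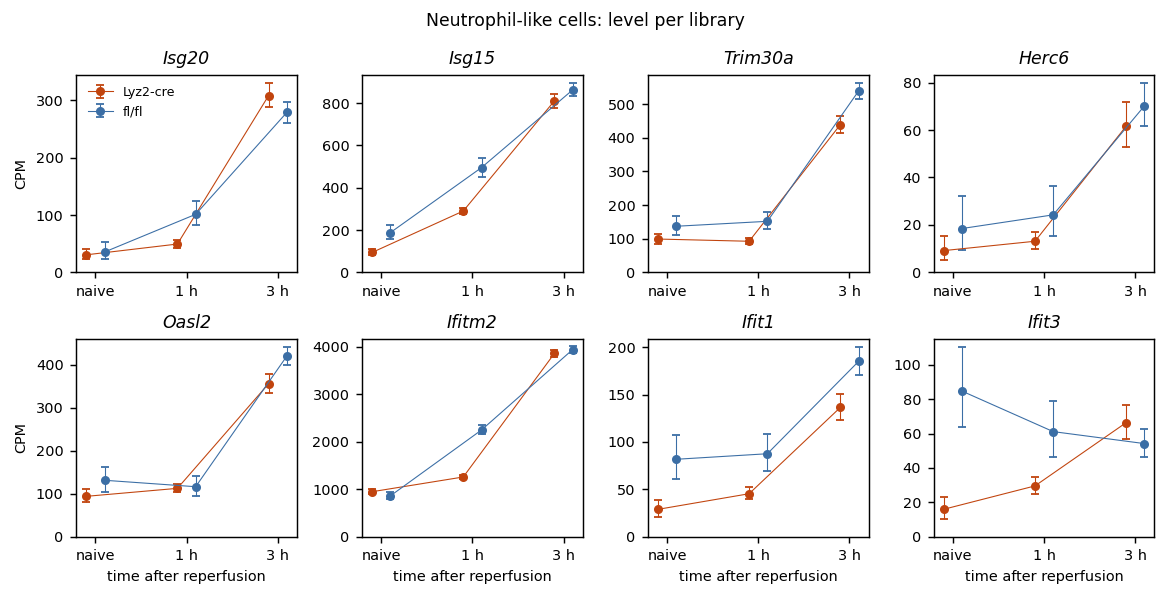
Level in CPM (y axis, separate scales) of 8 members in neutrophil-like cells of the 6 libraries at naive, 1 h and 3 h, Lyz2-cre left of fl/fl; bars are exact Poisson 95% intervals, which cover counting error only. Isg20, Trim30a, Herc6, Oasl2 and Ifitm2 were at their highest in both 3 h libraries, Isg20 at 308 CPM in Lyz2-cre and 279 CPM in fl/fl cells.

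The neutrophil-like class changed its make-up with time, and the members moved with it. Of the assessed cells of the class, cluster 15, led by Retnlg, Cxcr2 and, from outside both gene lists, the interferon-induced Ifitm1, held 0%, 1.14% and 93.3% in naive, 1 h and 3 h Lyz2-cre libraries and 0%, 4.85% and 91.3% in fl/fl libraries. Cluster 14, led by Retnlg, Mmp9 and Cxcr2, held 52.9%, 50.9% and 3.73% in Lyz2-cre libraries and 57.5%, 77.2% and 5.73% in fl/fl libraries. Cluster 17, with the granule genes Ltf, Lcn2 and Ngp among its leading genes, held 47.1%, 47.97% and 3.01% in Lyz2-cre libraries and 42.5%, 18.0% and 2.97% in fl/fl libraries. Cluster 14 held 61 Lyz2-cre and 88 fl/fl cells at 3 h, against 173 and 102 in naive mice, so its 3 h values rest on few cells. These were also the 3 h cells that clustered with those of earlier times. Within cluster 14 alone, 1 member was called at 3 h against naive, Ifitm2 at 0.93 ± 0.21, and 4.56% of 4256 genes were called. Isg20, Isg15, Trim30a and Herc6 were at 0.73, 0.22, 0.18 and 0.22 there, none past the test. Leaving out cluster 17 and keeping clusters 14 and 15, 14 members were called, 13 of them higher, against 20.7% of genes. A change in each cell and a replacement of cells by others cannot be told apart in these libraries. The neutrophil marker sum of the class was 397114, 394085 and 176340 CPM in Lyz2-cre libraries and 314619, 251287 and 199935 CPM in fl/fl libraries, lowest at 3 h in both genotypes, and its part in the result was not tested.

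The interferon-positive share of neutrophil-like cells was 16.2% (95% interval 12.01 to 21.1), 32.1% (28.9 to 35.5) and 39.6% (36.3 to 43.1) in Lyz2-cre libraries and 28.3% (20.5 to 37.3), 24.8% (19.0 to 31.2) and 46.9% (43.7 to 50.2) in fl/fl libraries. Cells with fewer than 2000 UMIs were left out, unevenly between libraries. Assessed were 272 of 305, 788 of 947 and 830 of 1000 cells in naive, 1 h and 3 h Lyz2-cre libraries. In fl/fl libraries they were 120 of 153, 206 of 321 and 942 of 1056. The positive share of assessed cells was higher at 3 h than in naive mice by 21.0 ± 3.45 percentage points (SD, n = 2 genotypes), above in both. The negative cells were also higher at 3 h, with 0.807, 1.23 and 1.62 mean core UMIs in Lyz2-cre libraries and 0.628, 1.10 and 1.61 in fl/fl libraries. In contrast to microglia, both the share and the level of the remaining cells were therefore higher at 3 h. Leaving out the positive cells, 16 of the 23 members were again called at 3 h against naive, and Ifih1, Ifit1, Irf7, Oas1a (whose reads may be split with the near-identical Oas1g), Oas3, Rsad2 and Zbp1 were lost. All of those lost except Ifih1 are core genes that chose the cells left out, so their loss is a description. In cluster 15, 41.5% of the Lyz2-cre and 49.9% of the fl/fl cells were positive at 3 h. In cluster 14 the positive share was 25.7%, 49.9% and 19.4% in naive, 1 h and 3 h Lyz2-cre libraries and 37.7%, 27.0% and 20.4% in fl/fl libraries, so it was lowest at 3 h in both genotypes. The 3 h shares there were 6 of 31 Lyz2-cre and 11 of 54 fl/fl assessed cells, so their counting error is wide and the order was not tested. The cluster held 61 and 88 cells in these libraries, and the others were too shallow to assess.

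Between genotypes no member was called in neutrophil-like cells by edgeR, against 0.0259% of all genes, and the members' median log2 fold change was -0.25. In the same test 8 of 34 members were below an unadjusted p of 0.05, a count given without the share of all genes. The Lyz2-cre library was below its fl/fl partner for 33 of 34 members in naive mice, 26 of 35 at 1 h and 27 of 34 at 3 h, against 62.8%, 68.6% and 38.2% of all genes with at least 3 UMIs in either library. DESeq2 also called 0, and 4 members were called without either 3 h library.

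The size of the 3 h change differed between classes in a model of both classes with 3 residual degrees of freedom. The change in neutrophil-like cells was above that in microglia-like cells for 24 of 35 members and below it for 0, against 9.41% of 12568 genes higher. It was above that in monocyte-like cells for 26 of 36 members and below it for 0, against 11.8% of 9508 genes higher. Isg20 differed by 3.94 from microglia-like and by 3.78 from monocyte-like cells on the log2 scale. Ifitm2 was an exception against microglia-like cells (-0.01, edgeR adjusted p = 1.0), and Slfn2 did not differ past the threshold from either (-0.48, adjusted p = 0.336, and -0.02). These pairs of classes come from the same 6 libraries and were chosen after their values were seen.

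Monocyte-like cells shared the rise of Ifitm2 and Slfn2. At 3 h against naive 5 of 36 members were higher and 2 lower, against 25.3% of all genes, and at 1 h 1 was higher, against 1.5%. The 3 h count was 18, 12 and 11 without the Lyz2-cre naive, fl/fl naive or fl/fl 1 h library and 4 without either 3 h library, and the 1 h count was 5, 3, 2 and 5 without the Lyz2-cre naive, fl/fl naive, Lyz2-cre 1 h or fl/fl 1 h library and 0 without either 3 h library. Ifitm2 was at 1302, 1801 and 2295 CPM in Lyz2-cre cells and at 1193, 2135 and 2209 CPM in fl/fl cells, and was higher at 3 h by 1.04 ± 0.13 (edgeR adjusted p = 0.000161). Slfn2 was higher by 1.11 ± 0.14 (adjusted p = 0.000243), Trim30a by 0.83 ± 0.20 (adjusted p = 0.0111) and Oas2 by 0.76 ± 0.21 (adjusted p = 0.0233). Cmpk2 and Irf1 were lower, by log2 fold changes of -1.70 ± 0.28 and -1.03 ± 0.19 (adjusted p = 0.00126 and 0.00256). Cmpk2 was at 27.7, 23.0 and 9.83 CPM in Lyz2-cre cells and at 49.4, 18.8 and 9.68 CPM in fl/fl cells, lowest at 3 h in both. The Trim30a call was lost without the Lyz2-cre naive (0.48) or Lyz2-cre 3 h (0.65) library, that of Irf1 without the fl/fl 3 h library (-0.81, adjusted p = 0.0676), and that of Oas2 without the Lyz2-cre naive (0.62), Lyz2-cre 3 h (0.84) or fl/fl 3 h (0.71) library. The share of the class in its cluster 6 was 30.04%, 48.8% and 80.5% in Lyz2-cre and 45.6%, 44.6% and 77.5% in fl/fl libraries.

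The interferon-positive share of monocyte-like cells had no common direction. It was 20.6% (95% interval 15.7 to 26.2), 42.7% (37.3 to 48.3) and 32.2% (29.0 to 35.6) in Lyz2-cre libraries and 47.4% (37.9 to 56.9), 24.1% (17.8 to 31.3) and 32.1% (28.0 to 36.4) in fl/fl libraries. The 3 h shares were alike, and the naive and 1 h shares lay in opposite order in the 2 genotypes. Isg15, itself one of the core genes that chose the cells, was at 117, 220.2 and 160.2 CPM in Lyz2-cre cells and 432, 183 and 216 CPM in fl/fl cells. Between genotypes no member was called by edgeR, against 0.0333% of all genes, DESeq2 also called 0, and the members' median was -0.24 on the log2 scale. In the edgeR test 1 member was below an unadjusted p of 0.05, a count given without the share of all genes.

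Border-associated macrophage-like cells, 45 to 117 per library, had calls in both directions, at a share close to that of all genes. Of the 31 members that passed the filter, 3 were higher and 6 lower at 3 h than in naive mice, a share of 29.0% against 27.3% of all genes, and 2 were higher and 1 lower at 1 h, against 8.97%. Clusters 8.8 and 8.9 of the class held 0%, 52.2% and 84.2% of its cells in naive, 1 h and 3 h Lyz2-cre libraries and 0%, 62.2% and 87.3% in fl/fl libraries, whereas cluster 8.0 held 51.3%, 6.52% and 0% in Lyz2-cre libraries and 51.1%, 8.89% and 5.45% in fl/fl libraries, and their part in the values was not tested. The 3 h count was 5 without the Lyz2-cre 3 h library, and the 1 h count was 11 without the fl/fl naive library and 6 without either 3 h library. Irf7 was at 77.1, 66.2 and 3.39 CPM in Lyz2-cre cells, the last from 1 UMI, and at 139, 211 and 46.9 CPM in fl/fl cells, lowest at 3 h in both genotypes. Its log2 fold change at 3 h was -2.01 ± 0.39 (edgeR adjusted p = 0.000261). Irf1, the nuclear body protein Sp100 and Oasl2 were lower by -1.48 ± 0.39, -0.99 ± 0.29 and -1.28 ± 0.38 (adjusted p = 0.00401, 0.00979 and 0.0125). Slfn2 and Ifitm2 were again higher, by 2.08 ± 0.21 and 1.57 ± 0.20 (adjusted p = 1.05e-09 and 2e-07). Slfn2 was at 174, 308 and 793 CPM in Lyz2-cre cells and at 268, 496 and 878 CPM in fl/fl cells. The calls of Sp100 and Oasl2 were lost without the Lyz2-cre naive library (-0.79 and -0.69) or the Lyz2-cre 3 h library (-0.66 and -0.75), and that of Irf1 without the fl/fl naive library (-0.999) or the fl/fl 3 h library (-1.10). With DESeq2 the adjusted p was 0.171 for Irf1, 0.259 for Sp100 and 0.161 for Oasl2.

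Between genotypes 3 members were lower in Lyz2-cre border-associated macrophage-like cells and 0 higher, against 0.236% of all genes. Irf7 had a log2 fold change of -1.38 ± 0.27 (edgeR adjusted p = 0.0204), Isg15 of -1.60 and Ifitm3 of -0.80. Isg15 was at 79.7, 53.0 and 50.8 CPM in Lyz2-cre cells against 141, 279 and 198 CPM in fl/fl cells, lower at each time. The Irf7 call was lost without the Lyz2-cre 1 h library (-1.18, adjusted p = 0.0524) or the fl/fl 1 h library (-1.21, adjusted p = 0.0935). DESeq2 called 0 members in this comparison, and 9 were called without either naive library. The interferon-positive share was 16.4% (10.0 to 24.6), 12.5% (4.19 to 26.8) and 4.35% (0.531 to 14.8) in Lyz2-cre libraries, the last being 2 of 46 cells, and 32.3% (22.9 to 42.7), 20.5% (9.80 to 35.3) and 19.2% (9.63 to 32.5) in fl/fl libraries. It was lower in Lyz2-cre at each time, by -12.9 ± 4.32 percentage points (SD, n = 3 times), though the counting intervals of each pair overlap.

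Lymphocyte-like cells had calls in both directions. At 1 h 2 of 34 members were higher and 6 lower than in naive mice, against 13% of all genes, and at 3 h 3 were higher and 7 lower, against 14.6%. The 1 h count was 2 without the fl/fl 1 h library, and the 3 h count was 16, 4, 5 and 1 without the Lyz2-cre naive, fl/fl naive, Lyz2-cre 3 h or fl/fl 3 h library. Isg20 was at 62.2, 24.7 and 21.5 CPM in Lyz2-cre cells and at 90.7, 24.8 and 39.3 CPM in fl/fl cells, above all later libraries in both naive ones. Its log2 fold change was -1.45 ± 0.19 at 1 h and -1.20 ± 0.19 at 3 h (edgeR adjusted p = 0.000139 and 0.000563), the opposite direction from neutrophil-like cells. Ifitm2 was higher at 3 h by 1.44 ± 0.29 (adjusted p = 0.00369). Ifnar2 was lower at 3 h by -0.73 ± 0.15 and Zbp1, a sensor of Z-form nucleic acids, lower at 1 h by -0.70 ± 0.15 (adjusted p = 0.00397 and 0.00471), whereas Parp14 was higher at 3 h by 0.70 ± 0.15 (adjusted p = 0.00494). Ifnar2 missed the threshold without the fl/fl naive (-0.60) or fl/fl 3 h (-0.70) library, and so did Parp14 (0.48 and 0.59), Zbp1 without the fl/fl naive, Lyz2-cre 1 h or fl/fl 1 h library (-0.58, -0.70 and -0.69), and Ifitm2 without the fl/fl 3 h library (1.33, adjusted p = 0.0887). DESeq2 did not call these 4 (adjusted p between 0.103 and 0.183). Between genotypes 2 members were lower in Lyz2-cre, against 1.4% of all genes: Ifit1 by -0.89 ± 0.14 (adjusted p = 0.00391) and Bst2 by -0.65. Without either 1 h library 5 members were called. With interferon-positive cells left out, the Ifit1 value was -0.11 (adjusted p = 0.962), but Ifit1 is one of the core genes that chose those cells.

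The make-up of the lymphocyte-like class differed between libraries. T cell-like cells were 47.8%, 18.9% and 30.7% of the class in Lyz2-cre libraries and 73.6%, 47.3% and 45.7% in fl/fl libraries, and B cell-like cells 23.0%, 61.4% and 44.0% in Lyz2-cre libraries and 9.34%, 38.0% and 36.3% in fl/fl libraries. Their part in the lymphocyte-like results was not tested. The interferon-positive share was 7.03% (4.79 to 9.88), 7.01% (4.87 to 9.70) and 5.06% (2.92 to 8.09) in Lyz2-cre libraries and 12.97% (10.5 to 15.8), 7.65% (5.10 to 10.9) and 9.15% (6.26 to 12.8) in fl/fl libraries. Among T cell-like cells alone it was 11.3%, 10.1% and 5.15% in Lyz2-cre libraries and 16.1%, 9.58% and 12.7% in fl/fl libraries.

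Of the other pathway genes, 33 of 64 were higher and 4 lower at 3 h in neutrophil-like cells, against 28.9% of all genes called in either direction. The counts were 12 and 12 of 75 in monocyte-like cells, against 25.3%, 10 and 23 of 64 in border-associated macrophage-like cells, against 27.3%, and 14 and 12 of 71 in lymphocyte-like cells, against 14.6%. Ifitm2 and Slfn2 were called higher at 3 h than in naive mice in each of the 5 classes, among 90 of 5004 genes tested in all 5 (1.8%) that were. Slfn2 was higher by 1.02 ± 0.24 in neutrophil-like cells (edgeR adjusted p = 0.0103) and by 0.40 ± 0.11 in lymphocyte-like cells (adjusted p = 0.0191).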

How the data were processed

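The 6 libraries were made with droplet 3′ version 3 chemistry, per the labels' protocols, and the authors' deposited files hold raw UMI counts per gene and barcode from Cell Ranger 3.0.2 and build mm10, per the submitters' processing notes. Of 51005 barcodes, 50634 had at least 300 genes and at most 10% mitochondrial counts. Automatic doublet calls were too few to use, so the barcodes ranked highest by doublet score were removed at 0.8% per 1000 barcodes, which left 47103 cells. Cells were clustered in scanpy 1.11.5 on 2000 variable genes, 30 principal components and 15 neighbours at resolution 1, without the members and the other pathway genes, and clusters were named from fixed markers. Where the design text has 0 h after reperfusion, the titles have naive, which was used.

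Within each class, counts were added up by library and tested with edgeR 4.0.16 in R 4.3.3 (filterByExpr, TMM, robust quasi-likelihood, Benjamini-Hochberg adjustment over all genes tested, threshold 0.05), with genotype and time as additive terms and 2 residual degrees of freedom. DESeq2 1.42.0, other scalings, filters and thinning depths, and leaving out each library were tried as alternatives. Standard errors were taken from the F statistic. CPM are relative to all UMIs of the class in the library. Intervals and the floor of 3 UMIs cover counting error only.

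The members, lists and rules were chosen with earlier results of these data known. Full statistics are given for at most the 12 members with the smallest adjusted p among those called in microglia-like cells, and at most 6 in each other class. Members given beyond that, and the genes of a count of 5 or fewer, were picked after their values were seen. The scripts were tested on simulated data.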

Additional observations from a re-analysis of the deposited data

Results flagged for a closer look

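Results that differed between classes under the same contrast come first. The 3 h against naive change was larger in neutrophil-like than in microglia-like cells for 24 members and larger than in monocyte-like cells for 26 members (edgeR, both classes in 1 model with the library as a block). Over all genes the change was larger for 9.41% of 12568 and 11.8% of 9508. Against microglia-like and monocyte-like cells, the log2 differences were 3.94 and 3.78 for Isg20, 2.88 and 3.10 for Isg15, 2.07 and 1.57 for Trim30a, 2.92 and 2.86 for Herc6, and 2.55 and 2.20 for Oasl2. For Ifitm2 the difference from monocyte-like cells was 1.43. The neutrophil-like class of the 3 h libraries lay mostly in another cluster than that of the earlier libraries. Cluster 14, which holds cells of all times, had only 61 Lyz2-cre and 88 fl/fl cells at 3 h. Isg20, Isg15, Trim30a and Herc6 did not pass the test within it. A change in cells and a change of cells cannot be told apart.

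The interferon-positive share of monocyte-like cells moved in opposite directions at 1 h in the 2 genotypes: 1 h minus naive was 22.2 percentage points in Lyz2-cre and -23.3 in fl/fl. With 1 library per genotype and time, this difference was not tested.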

How the results depend on the processing

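With each of the 6 libraries left out in turn, the counts of members called for 1 h against naive, 3 h against naive, 3 h against 1 h and Lyz2-cre against fl/fl ran from 2 to 11, 4 to 16, 8 to 17 and 0 to 12 in microglia-like cells. They ran from 2 to 11, 5 to 11, 4 to 7 and 2 to 9 in border-associated macrophage-like, 0 to 5, 4 to 18, 1 to 12 and 0 to 0 in monocyte-like, 0 to 6, 19 to 29, 16 to 22 and 0 to 4 in neutrophil-like, and 2 to 10, 1 to 16, 0 to 5 and 3 to 5 in lymphocyte-like cells. DESeq2 called 3 microglial members between genotypes; 1, 3, 2 and 0 in border-associated macrophage-like cells in the 4 comparisons; 2 at 3 h against 1 h in monocyte-like cells; 2 at 1 h in neutrophil-like cells; and 1, 2, 0 and 0 in lymphocyte-like cells. With no filter on low counts, 8 and 6 microglial members were called at 1 h and between genotypes, 5 in border-associated macrophage-like cells at 1 h, 4 and 7 in monocyte-like cells at 1 h and at 3 h against 1 h, 4 in neutrophil-like cells at 1 h, and 13, 18, 5 and 12 in lymphocyte-like cells. Without interferon-positive cells the counts were 1 between genotypes in border-associated macrophage-like cells, 8 and 12 at 3 h against 1 h in monocyte-like and neutrophil-like cells, and 5, 2 and 1 in lymphocyte-like cells at 1 h, at 3 h against 1 h and between genotypes. The members counted include the core genes that chose the cells left out. Keeping doublets gave 0 between genotypes in border-associated macrophage-like cells and 2 at 1 h in neutrophil-like cells, and the stricter cell filter gave 4 between genotypes in lymphocyte-like cells. The cause of these moves was not tested. No share of all genes is set beside the counts under any of these alternatives, here or above. They show how far the calls depend on the processing, and not whether members moved apart from all genes.

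Splits of the neutrophil-like class were chosen after the clusters were seen. In cluster 14 alone, 2, 1 and 0 members were called at 1 h against naive, 3 h against naive and 3 h against 1 h, and in clusters 14 and 15, 2, 14 and 12. The numbers of members tested in these splits are not given, so these counts are not shares. There 4 values turned round in cluster 14: Isg20, Isg15 and Ifitm2 at 3 h against 1 h (-0.19, -0.995 and -0.052) and Oasl2 at 3 h against naive (-0.17). Of 902 values of named members under the alternatives, 738 kept direction and side of the threshold and 160 kept direction but missed it.

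The share of interferon-positive cells at 3 h minus naive kept its sign under each rule in microglia-like, border-associated macrophage-like, neutrophil-like and lymphocyte-like cells. With at least 2 core genes it was -1.89, -18.5, 28.2 and -4.52 percentage points. With at least 4 it was -0.377, -4.78 and 15.1 in the first 3. Thinned to 1000 UMIs it was -0.232, -2.57 and 12.7 there, and thinned to 3000 UMIs -1.22, -6.23, 24.5 and -1.54. Without thinning it was -2.69, -19.2, 16.7 and -9.38. It was -11.8 with doublets kept in border-associated macrophage-like cells and -5.08 with the stricter cell filter in lymphocyte-like cells. Lyz2-cre minus fl/fl was -1.67 without thinning in microglia-like cells, and in border-associated macrophage-like cells -21.3 and -7.31 with at least 2 and 4 core genes, -5.49 at 1000 UMIs and -25.1 without thinning.

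No paired analysis was possible because each genotype and time was 1 library and the replicate numbers mark nothing else. The border-associated macrophage-like values rest on 45 to 117 cells per library, and low members there on few UMIs.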

Other observations

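The interferon-positive share of conventional dendritic cell-like cells, 28 to 68 cells per library, was 11.3%, 17.2% and 14.7% in Lyz2-cre naive, 1 h and 3 h libraries and 29.8%, 14.3% and 23.8% in fl/fl libraries. In granulocyte-monocyte progenitor-like cells, which had the deepest coverage, it lay between 0% and 6.43%. With as many as 249 assessed cells in the Lyz2-cre 1 h library and as few as 17 in the fl/fl 3 h library, the shares of the other libraries have wide counting intervals.

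Cxcl9, a chemokine that interferon-gamma induces, had 0, 37 and 20 UMIs in 0, 2 and 5 microglia-like cells of Lyz2-cre naive, 1 h and 3 h libraries and 76, 178 and 199 UMIs in 8, 5 and 11 cells of fl/fl libraries. Ifng itself had at most 2 UMIs in the microglia-like cells of any library. In lymphocyte-like cells Ifng was at 119, 63.0 and 40.1 CPM in Lyz2-cre libraries and at 138, 32.8 and 50.2 CPM in fl/fl libraries.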
